A study of Homo sapiens with 18 samples.

Results

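Polycomb repressive complex 2 (PRC2) is followed here through 10 subunit genes in 2 human acute myeloid leukaemia lines treated with 2 drugs. The members were found by gene symbol: EZH1, EZH2, SUZ12, EED, RBBP4, RBBP7, JARID2, MTF2, PHF1 and PHF19. All 10 were listed for both lines, among 17110 genes for HL-60 and 17475 for MOLM-13, and all 10 passed the filter on low values. HL-60 is a promyelocytic line and MOLM-13 a monocytic line that carries a KMT2A rearrangement. Each line is a single established culture model. Each was exposed for 48 h (day 2) to dimethyl sulfoxide (DMSO, the solvent control), to decitabine (DAC, a cytidine analogue that traps DNA methyltransferases) or to NTX-301, a compound known here by its code name. There were 3 replicates in each of the 6 groups. The stated concentration was 30 nM in HL-60 cultures and 15 nM in MOLM-13 cultures, and the labels do not settle whether this covers both drugs or DAC alone. Line and concentration therefore cannot be told apart.

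PRC2 methylates lysine 27 of histone H3, a mark of silenced developmental and lineage genes. EZH2 or its paralogue EZH1 carries the catalytic domain, SUZ12 is the scaffold, EED reads the mark and stimulates the enzyme, and RBBP4 and RBBP7 bind histones. MTF2, PHF1 and PHF19 are alternative Polycomb-like subunits that bring the complex to CpG islands, and JARID2 belongs to a separate form of the complex. In blood cells EZH2 is the form of dividing progenitors, while EZH1 persists in resting and differentiated cells. Both loss and overactivity of EZH2 have been described in myeloid and lymphoid cancers.

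The deposited values are normalised log2 values, 1 per gene and sample, and read depth is unknown. Median values over all genes lay between 9.52 and 9.56 in the HL-60 samples and between 9.79 and 9.84 in the MOLM-13 samples. All 7 myeloid markers examined (CD33, MPO, SPI1, CEBPA, PTPRC, ITGAM, LYZ) were listed in both lines, and HOXA9 and MEIS1 were listed for MOLM-13 alone. CD14, a monocyte marker, was listed for neither. Of the markers of T cells, B cells, erythroid cells, epithelium and fibroblasts, 2 of 20 were listed for HL-60 and 6 of 20 for MOLM-13, the highest of them KRT18 in MOLM-13 with a median log2 value of 9.36. The summed linear values of the 7 myeloid markers fell between 457828 and 481497 in HL-60 DMSO, 443412 and 448458 under DAC, and 369961 and 377663 under NTX-301. In MOLM-13 they fell between 143398 and 147889, 214513 and 227299, and 152822 and 159565. MPO made up most of the sum in HL-60 (median log2 value 18.63) and LYZ in MOLM-13 (16.59). The summed linear values of 4 promyelocytic markers (AZU1, CTSG, ELANE, PRTN3) lay between 105474 and 116002 in HL-60 DMSO, 111607 and 116096 under DAC, and 71087 and 73326 under NTX-301. In MOLM-13 they lay between 192082 and 200119, 203762 and 226001, and 191104 and 209679. These sums differed between treatments, and their part in the values of the PRC2 genes was not tested.

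Several PRC2 genes, EZH2 and EED among them, are described elsewhere as targets of the E2F factors of the cell cycle. The RefSeq promoter windows of the members (250 bases before the start of the gene to 50 after it, build GRCh38.p14) were therefore searched for the E2F-type letters TTTCCCGC, TTTGGCGC, TTTGCCGC and TTTCGCGC on both strands. Windows were found for all 10 members, and 5 of the 10 held a match in a window, overlaps between the motifs included, against 6.96% of 10254 genes listed in both lines and 3.31% of all 35116 windows. EED, RBBP4, RBBP7, JARID2 and PHF1 held none, and the part of the matches in the values of the PRC2 genes was not tested. The stretches around the 5 matches are shown. Each reads 5′ to 3′ on the strand of its gene, and the capitals mark the match.
EZH2 (chr7:148884267-148884366, minus strand): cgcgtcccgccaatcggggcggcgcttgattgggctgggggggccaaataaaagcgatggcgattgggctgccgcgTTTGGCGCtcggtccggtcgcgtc
EZH1 (chr17:42745102-42745201, minus strand): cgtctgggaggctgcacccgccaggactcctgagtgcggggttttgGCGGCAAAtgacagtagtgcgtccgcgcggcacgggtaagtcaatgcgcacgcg
SUZ12 (chr17:31936772-31936871, plus strand): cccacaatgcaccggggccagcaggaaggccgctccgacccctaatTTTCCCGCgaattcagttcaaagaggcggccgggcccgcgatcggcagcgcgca
MTF2 (chr1:93079208-93079307, plus strand): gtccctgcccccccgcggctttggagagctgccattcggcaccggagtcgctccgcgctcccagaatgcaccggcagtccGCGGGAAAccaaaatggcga
PHF19 (chr9:120877287-120877386, minus strand): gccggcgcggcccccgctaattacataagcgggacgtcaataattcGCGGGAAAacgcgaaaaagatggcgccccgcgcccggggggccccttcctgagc
The letters lie at bases 2 to 9 from the start of EZH2 and at 6 to 13 of MTF2. In EZH1, SUZ12 and PHF19 they lie before the start, beginning at −115, −189 and −152. A match describes the letters in these windows and not a bound site. EZH1 and EZH2 both hold a match, with different letters and at different positions.

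Levels were ordered within DMSO after division by the median length of each gene's annotated transcripts. In HL-60 the order was RBBP4 (13.76, log2 per kilobase), RBBP7 (12.49), EZH2 (11.80), SUZ12 (11.21), MTF2 (10.52), PHF19 (10.29), EED (10.28), JARID2 (10.07), EZH1 (9.02) and PHF1 (8.14). The histone-binding subunits thus stood at the top and EZH1 and PHF1 at the bottom. PHF19 and EED lay within the spread of EED (SD 0.047). In MOLM-13 the order was RBBP4 (13.60), RBBP7 (12.41), SUZ12 (11.65), EZH2 (11.33), JARID2 (11.25), MTF2 (10.90), EED (10.63), PHF19 (9.18), EZH1 (9.13) and PHF1 (8.43). PHF19 and EZH1 lay within their spread there (SD 0.022 and 0.043), and the other neighbours lay further apart than their SDs. The lines appear to have been normalised apart, though the method is not given, so levels were not tested between them. On the deposited scale JARID2 was 12.58 ± 0.037 in HL-60 and 13.76 ± 0.033 in MOLM-13 DMSO, and PHF19 was 12.23 ± 0.0081 and 11.11 ± 0.022 (SD, n = 3). The order depends on the transcripts taken: those of RBBP4 span 1674 to 7943 bases and those of PHF19 836 to 4241. Division by length also takes the deposited values as not yet scaled by length, which the sources used here do not state. On the deposited scale the order differed. JARID2 (13.76) and SUZ12 (13.73) stood above RBBP7 (13.54) in MOLM-13 DMSO, and SUZ12 (13.29) above EZH2 (13.17) in HL-60 DMSO.

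**Figure D1:**
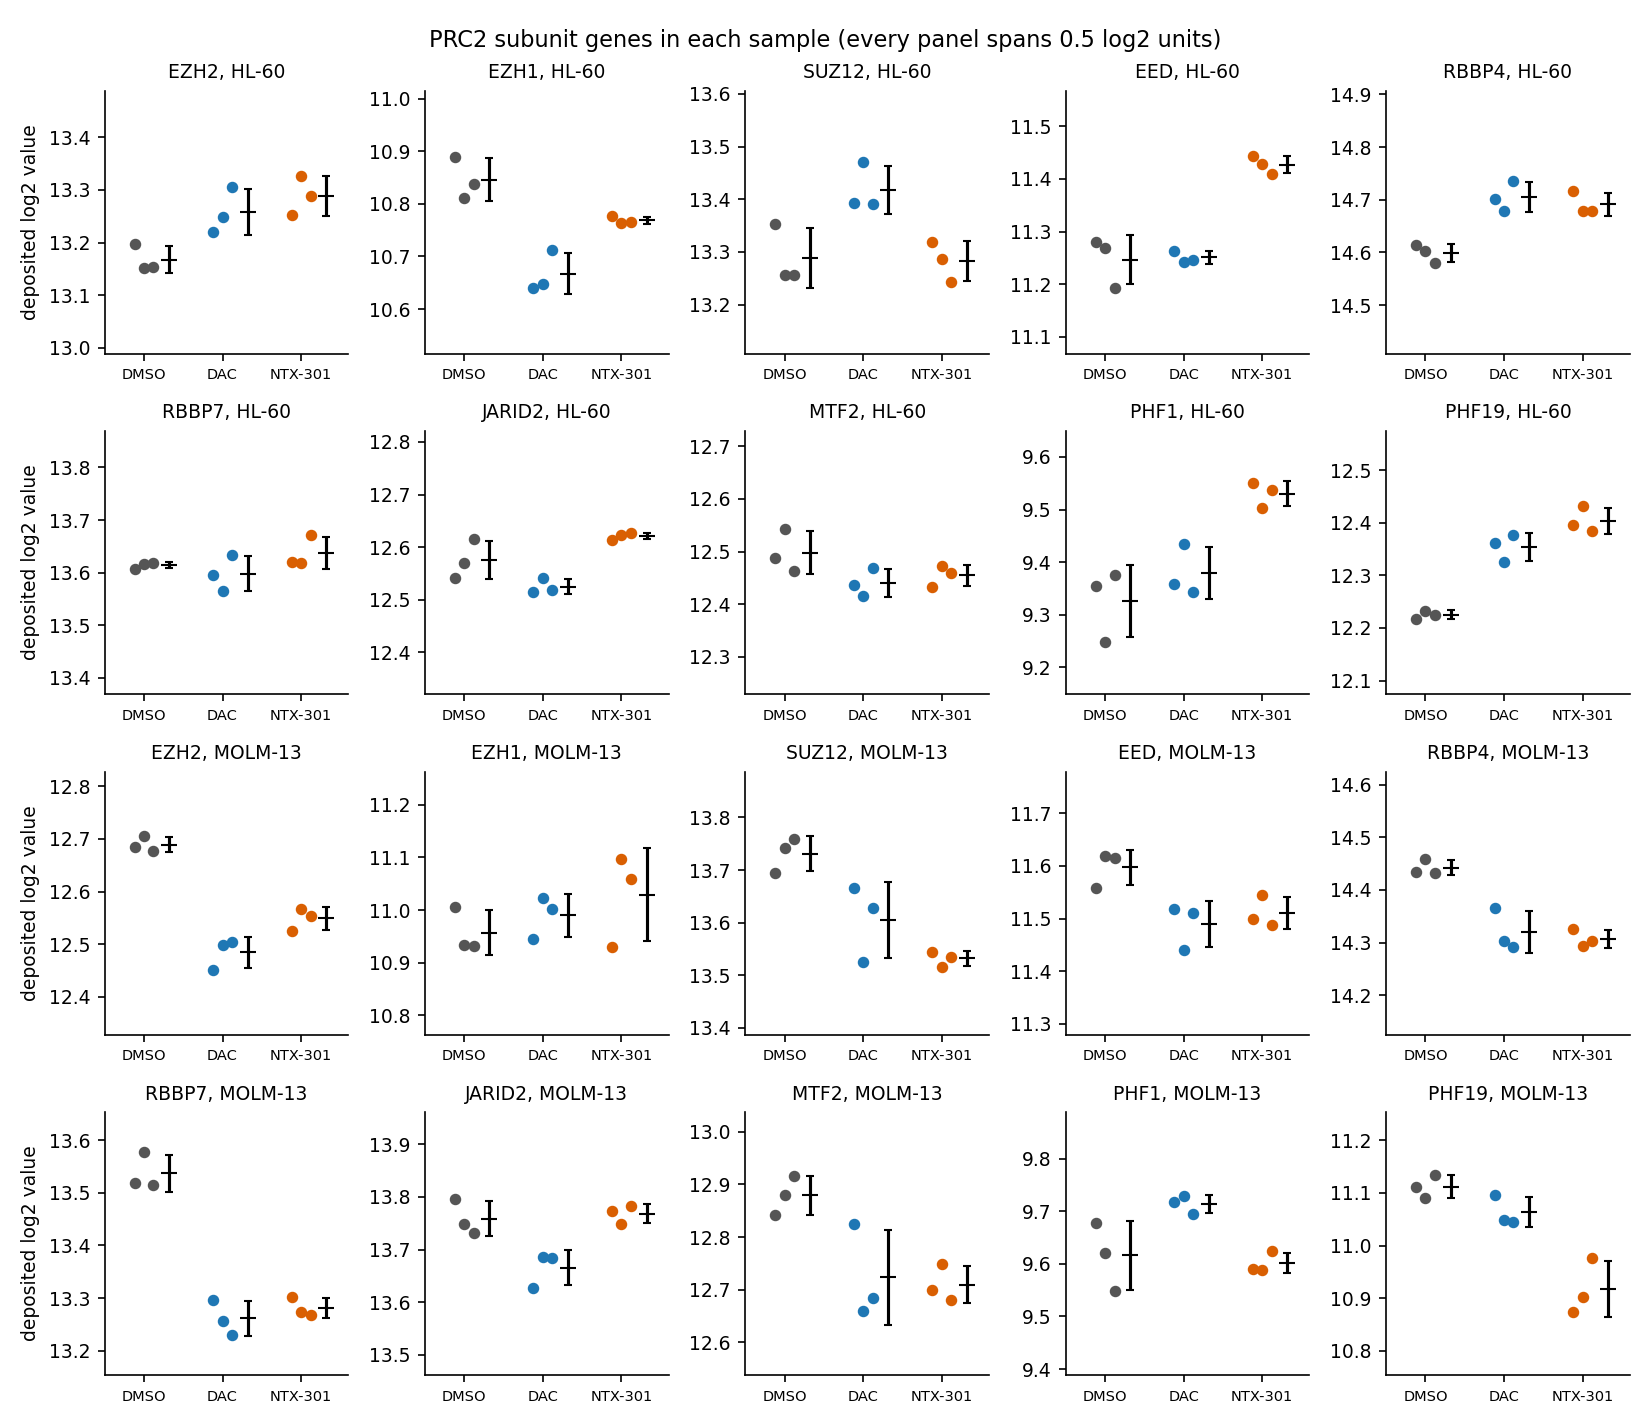
Deposited log2 value (vertical axis) of each of the 10 PRC2 subunit genes in every sample, HL-60 in the upper 2 rows and MOLM-13 in the lower 2. Points are samples of the DMSO, DAC and NTX-301 groups, bars are mean ± SD (n = 3), and every panel spans 0.5 log2 units. EZH2 lies higher with both drugs than in DMSO in HL-60 (from 13.17 to 13.26 and 13.29) and lower in MOLM-13 (from 12.69 to 12.48 and 12.55).

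The first question was which subunit genes responded to the drugs. In HL-60, DAC against DMSO raised 4 of the 10 (EZH2, SUZ12, RBBP4, PHF19) and lowered 1 (EZH1), at an adjusted p under 0.05 in limma. Over all genes tested there, 24.2% were called, 11.6% higher and 12.6% lower. NTX-301 raised 5 in HL-60 (EZH2, EED, RBBP4, PHF1, PHF19) and lowered none, where 37.4% of all genes were called, 18.3% higher and 19.2% lower. After each sample was centred on its median, the NTX-301 members were 5 higher and 2 lower, and all genes 2270 higher and 6053 lower, against 3115 and 3265 as deposited. In MOLM-13, DAC lowered 7 (EZH2, SUZ12, EED, RBBP4, RBBP7, JARID2, MTF2) and raised none, where 36.6% of all genes were called, 15.4% higher and 21.2% lower. NTX-301 lowered 7 there too (EZH2, SUZ12, EED, RBBP4, RBBP7, MTF2, PHF19) and raised none, where 45.1% were called, 20.3% higher and 24.8% lower. After centring, all genes in MOLM-13 were 1960 higher and 5731 lower under DAC, against 2689 and 3705 as deposited, and 2735 and 5760 under NTX-301, against 3543 and 4337, while the members stayed at 7 lower for either drug. The called changes were from 0.086 to 0.28 in size on the log2 scale. By range alone, treated and control samples did not overlap for 6 members under DAC in HL-60 (4 above, 2 below; 38.7% of all genes), 7 under NTX-301 (6 above, 1 below; 47%), and in MOLM-13 for 8 (1 above, 7 below; 47.9%) and 7 (all below; 55.8%).

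The 7 falls in MOLM-13 stood among many falls of genes at the same level. Of 6153 other genes with a mean log2 value of 11 to 15, the range that held 8 of the members, 44.6% were called lower under DAC and 50.8% under NTX-301, with medians of −0.068 and −0.089. Of 11066 genes under 11, 7.51% and 9.72% were called lower. Of the 8 members in the range, 7 were lower under each drug. The range was chosen after the data were seen. After quantile normalisation within the line, 2 members remained lower under DAC (EZH2, RBBP7), and under NTX-301 3 were lower (SUZ12, RBBP7, PHF19) and 1 higher (JARID2). All of these lie in that range, where 26.7% of genes were then lower and 23.9% higher under DAC, and 32.5% and 29.2% under NTX-301. The number of members called lower in MOLM-13 thus depended on the scaling. In the same range in HL-60, 14.2% of 5576 genes were higher and 22.4% lower under DAC, and 18.2% and 36.5% under NTX-301. Of the 8 members in that range there, 4 rose with either drug and none fell. After quantile normalisation the shares were 16.4% higher and 17.8% lower under DAC and 24.5% and 27.3% under NTX-301, and 4 and 6 of the 8 members were higher and none lower. In bulk RNA, fewer cells of a type and less RNA per cell cannot be told apart.

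EZH2, the catalytic subunit of dividing cells, moved in opposite directions in the lines. In HL-60 it was 13.20, 13.15 and 13.15 in DMSO, 13.22, 13.25 and 13.31 under DAC, and 13.25, 13.33 and 13.29 under NTX-301. Every treated sample lay above every control. The differences were 0.091 (SE 0.027, adjusted p 0.0234) under DAC and 0.12 (SE 0.027, adjusted p 0.00235) under NTX-301, or linear ratios of 1.06 and 1.09. The DAC call was lost without DMSO replicate 2 (0.083), DMSO replicate 3 (0.084) or DAC replicate 3 (0.067).

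In MOLM-13 EZH2 was 12.68, 12.71 and 12.68 in DMSO, 12.45, 12.50 and 12.50 under DAC, and 12.53, 12.57 and 12.55 under NTX-301, with no overlap between treated samples and controls. The falls were −0.20 (SE 0.024, 95% interval −0.26 to −0.15, adjusted p 7.04e-05) and −0.14 (SE 0.024, adjusted p 0.000635), linear ratios of 0.868 and 0.907. Genes within 0.5 of its level had medians of −0.072 and −0.091. After quantile normalisation the DAC fall was −0.13 and still called, and the NTX-301 fall was −0.051 and was not (adjusted p 0.163). The DAC call thus held under the scalings run, and the NTX-301 call depended on the scaling.

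EZH1, the paralogue of resting cells, did not follow EZH2. In HL-60 it was 10.89, 10.81 and 10.84 in DMSO, 10.64, 10.65 and 10.71 under DAC, and 10.78, 10.76 and 10.77 under NTX-301. Both treated groups lay below all controls, and the DAC group lowest. The DAC fall was −0.18 (SE 0.030, adjusted p 0.000681). The NTX-301 difference was −0.077 (adjusted p 0.0565), and it was called after centring (−0.11), without the trend, without DMSO replicate 2 (−0.095) and without DAC replicate 3. In MOLM-13 EZH1 was 11.01, 10.93 and 10.93 in DMSO, between 10.94 and 11.02 under DAC, and 10.93, 11.10 and 11.06 under NTX-301, and the 3 groups overlapped. The differences there were 0.033 (−0.0044 after centring) and 0.071, not called (adjusted p 0.610 and 0.213). Without NTX-301 replicate 1 the latter was 0.12 and called.

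The balance of the catalytic paralogues is the difference of their log2 values within a sample. A constant shift of a sample cancels in it, but a shift that depends on level does not. In MOLM-13, genes at the level of EZH2 had medians of −0.072 under DAC and −0.091 under NTX-301. Those at the level of EZH1 had −0.036 and −0.048. In HL-60 these medians were −0.014 and −0.038 for EZH2, and −0.023 and −0.015 for EZH1. EZH2 minus EZH1 was 2.32 ± 0.017 in HL-60 DMSO, 2.59 ± 0.011 under DAC and 2.52 ± 0.044 under NTX-301. In MOLM-13 it was 1.73 ± 0.049, 1.495 ± 0.017 and 1.52 ± 0.067 (SD, n = 3). The balance was higher in every treated HL-60 sample than in any control and lower in every treated MOLM-13 sample than in any control. Since the genes differ in length, these values compare groups and not the amounts of the paralogues. No p is given for this pair, which was chosen with the values known.

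**Figure D2:**
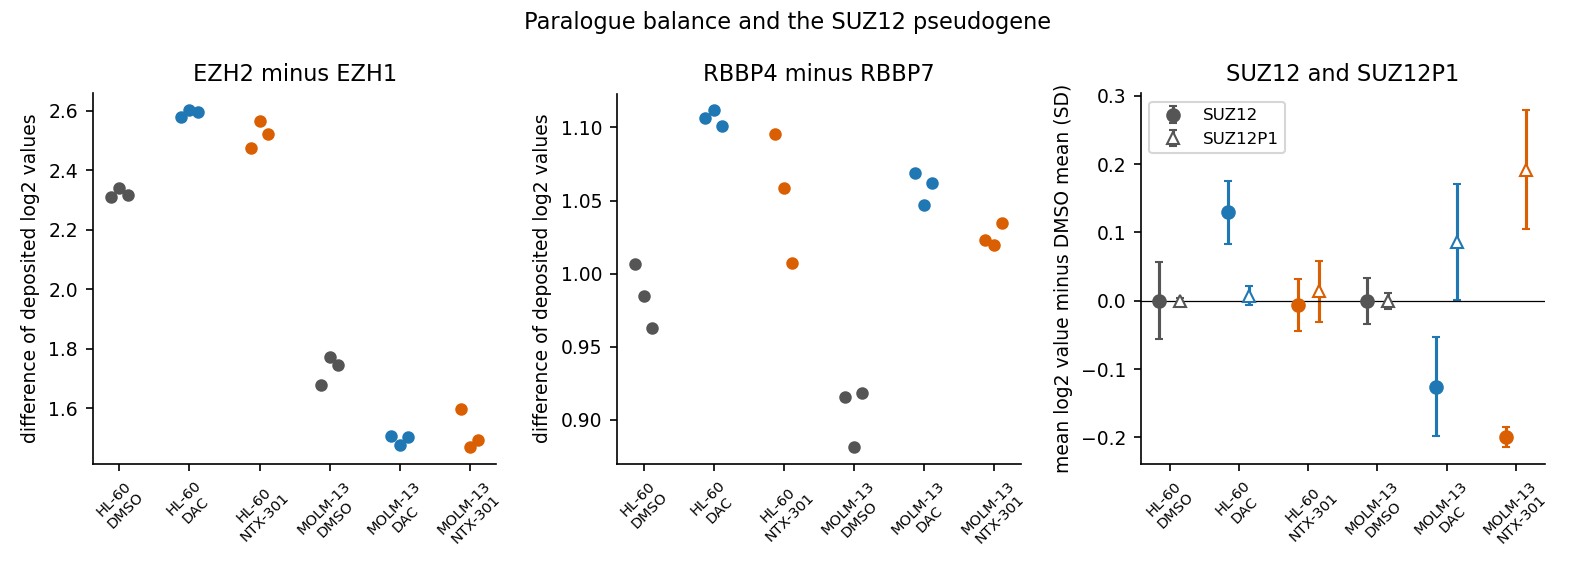
EZH2 minus EZH1 (left) and RBBP4 minus RBBP7 (middle), as differences of deposited log2 values in each sample by line and treatment, and the mean log2 value of SUZ12 and its pseudogene SUZ12P1 minus the DMSO mean of the line (right, bars SD, n = 3). The EZH2 to EZH1 balance rises from 2.32 to 2.59 and 2.52 in HL-60 and falls from 1.73 to 1.495 and 1.52 in MOLM-13, while SUZ12 and SUZ12P1 part under NTX-301 in MOLM-13.

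SUZ12, the scaffold without which the complex is unstable, rose under DAC in HL-60. It was 13.35, 13.26 and 13.26 in DMSO, 13.39, 13.47 and 13.39 under DAC, and 13.32, 13.29 and 13.24 under NTX-301. The DAC samples lay above all others, and the NTX-301 samples overlapped the controls. DAC raised it by 0.13 (SE 0.031, adjusted p 0.00813), and NTX-301 left a difference of −0.0061 (95% interval −0.073 to 0.061, 0.026 after quantile normalisation). In MOLM-13 SUZ12 was 13.69, 13.74 and 13.76 in DMSO, 13.66, 13.52 and 13.63 under DAC, and 13.55, 13.52 and 13.54 under NTX-301, all treated samples below all controls. The falls were −0.13 (SE 0.034, adjusted p 0.0116) and −0.20 (SE 0.034, adjusted p 0.000496). Genes within 0.5 of its level had medians of −0.093 and −0.11, and after quantile normalisation the values were −0.025, not called, and −0.084, called. The DAC call was also lost without DMSO replicate 3 (−0.11, adjusted p 0.0501).

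SUZ12P1, a pseudogene copied from SUZ12, was listed in both lines, and reads of the 2 genes may have been split between them, so both values are uncertain. In HL-60 SUZ12P1 lay between 11.50 and 11.58 in all 9 samples. In MOLM-13 it was 11.72 ± 0.012 in DMSO, 11.81 ± 0.085 under DAC and 11.915 ± 0.087 under NTX-301 (SD, n = 3). It rose under NTX-301 (0.19, SE 0.047, adjusted p 0.00585), where SUZ12 fell. The DAC difference of 0.086 was not called, and was 0.13 and called without DAC replicate 1.

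EED, the subunit that binds the methyl mark, rose under NTX-301 alone in HL-60. It was 11.28, 11.27 and 11.19 in DMSO, 11.26, 11.24 and 11.25 under DAC, and 11.44, 11.43 and 11.41 under NTX-301. The NTX-301 samples stood clear of the 6 others, which overlapped. The rise was 0.18 (SE 0.027, adjusted p 0.000129), against 0.0039 under DAC (95% interval −0.055 to 0.063), a value that was −0.023 without DMSO replicate 3 and −0.0026 without DAC replicate 1. In MOLM-13 EED was 11.56, 11.62 and 11.61 in DMSO, 11.52, 11.44 and 11.51 under DAC, and 11.50, 11.55 and 11.49 under NTX-301, without overlap between treated and control samples. Its falls of −0.11 (adjusted p 0.0190) and −0.086 (adjusted p 0.0427) were the weakest of the core. The DAC call was lost without DMSO replicate 2 (−0.097), DMSO replicate 3 (−0.099) or DAC replicate 2 (−0.083). The NTX-301 call was lost without DMSO replicate 2 (−0.076), DMSO replicate 3 (−0.078), DAC replicate 3 (−0.086), NTX-301 replicate 1 (−0.081) or NTX-301 replicate 3 (−0.075). Both were lost after quantile normalisation (−0.056 and −0.021).

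RBBP4 and RBBP7 are histone chaperones that PRC2 shares with other complexes. RBBP4 was 14.61, 14.60 and 14.58 in HL-60 DMSO, 14.70, 14.68 and 14.73 under DAC, and 14.72, 14.68 and 14.68 under NTX-301. It rose by 0.11 (SE 0.020, adjusted p 0.00174) and 0.092 (SE 0.020, adjusted p 0.00227), with all treated samples above the controls, and the second was 0.061 after centring. RBBP7 was 13.61, 13.62 and 13.62, then 13.60, 13.57 and 13.63, then 13.62, 13.62 and 13.67 in the same groups. Its differences of −0.015 and 0.023 were not called as deposited (adjusted p 0.671 and 0.457). The second was −0.0083 after centring, and 0.056 and called after quantile normalisation.

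In MOLM-13 both fell. RBBP7 was 13.52, 13.58 and 13.51 in DMSO, 13.30, 13.26 and 13.23 under DAC, and 13.30, 13.27 and 13.27 under NTX-301, a wide gap between treated and control samples. Its falls of −0.28 (SE 0.026, 95% interval −0.33 to −0.22, adjusted p 1.52e-05) and −0.26 (SE 0.026, adjusted p 1.41e-05) were the deepest among the members in either drug comparison. Genes at its level had medians of −0.091 and −0.11, and the falls stayed called after quantile normalisation (−0.18 and −0.15). RBBP4 was 14.43, 14.46 and 14.43 in DMSO, 14.37, 14.30 and 14.29 under DAC, and 14.33, 14.29 and 14.30 under NTX-301. Its falls of −0.12 (adjusted p 0.00226) and −0.13 (adjusted p 0.000813) lay close to the medians of genes at its level, −0.092 and −0.12. After quantile normalisation they were −0.013 and −0.0034 and not called. RBBP4 minus RBBP7 was 0.98 ± 0.022 in HL-60 DMSO, 1.11 ± 0.0054 under DAC and 1.05 ± 0.044 under NTX-301, and 0.90 ± 0.020, 1.06 ± 0.011 and 1.03 ± 0.0077 in MOLM-13 (SD, n = 3).

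Among the Polycomb-like subunits, PHF19 parted most between the lines. In HL-60 it was 12.22, 12.23 and 12.23 in DMSO, 12.36, 12.32 and 12.38 under DAC, and 12.40, 12.43 and 12.38 under NTX-301. The controls had an SD of 0.0081 and lay below all treated samples. The rises were 0.13 (SE 0.023, adjusted p 0.00106) and 0.18 (SE 0.023, adjusted p 2.76e-05). In MOLM-13 PHF19 was 11.11, 11.09 and 11.13 in DMSO, 11.10, 11.05 and 11.05 under DAC, and 10.87, 10.90 and 10.98 under NTX-301. NTX-301 lowered it by −0.19 (SE 0.034, adjusted p 0.000606), and DAC gave −0.048 (adjusted p 0.296) with overlapping groups. Genes at its level had a median of −0.050 under NTX-301, and the fall stayed called after quantile normalisation (−0.16).

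PHF1, the least abundant member, rose under NTX-301 in HL-60. It was 9.35, 9.25 and 9.38 in DMSO, 9.36, 9.43 and 9.34 under DAC, and 9.55, 9.504 and 9.54 under NTX-301. The NTX-301 samples lay above the other 6, which overlapped. The rise was 0.20 (SE 0.040, adjusted p 0.00111). In MOLM-13 PHF1 was 9.68, 9.62 and 9.55, then 9.72, 9.73 and 9.70 under DAC, then 9.59, 9.59 and 9.62 under NTX-301. The DAC samples lay above the controls and the NTX-301 samples among them. Neither difference was called (0.097, adjusted p 0.0935, and −0.015, adjusted p 0.801). The DAC value was 0.13 and called without DMSO replicate 1, and it was called without the trend. The NTX-301 value was 0.016 without the same control.

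MTF2, also Polycomb-like, was 12.49, 12.54 and 12.46 in HL-60 DMSO, 12.44, 12.41 and 12.47 under DAC, and 12.43, 12.47 and 12.46 under NTX-301. These groups overlapped, and the differences of −0.058 and −0.043 were not called as deposited; the second was −0.075 and called after centring. In MOLM-13 it was 12.84, 12.88 and 12.92 in DMSO, 12.83, 12.66 and 12.68 under DAC, and 12.70, 12.75 and 12.68 under NTX-301. Treated samples lay below the controls, DAC replicate 1 by a small margin. The falls were −0.16 (SE 0.040, adjusted p 0.00965) and −0.17 (SE 0.040, adjusted p 0.00472). After quantile normalisation both were −0.083 and −0.081 and not called.

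JARID2, which brings PRC2 to chromatin in a form without the Polycomb-like subunits, was 12.54, 12.57 and 12.61 in HL-60 DMSO, 12.52, 12.54 and 12.52 under DAC, and 12.61, 12.62 and 12.63 under NTX-301. Its differences from DMSO were −0.051 (adjusted p 0.125) and 0.045 (adjusted p 0.144). The latter was called after quantile normalisation (0.075) and without DMSO replicate 3 (0.064). In MOLM-13 it was 13.80, 13.75 and 13.73 in DMSO, 13.63, 13.69 and 13.68 under DAC, and 13.77, 13.75 and 13.78 under NTX-301. Only the DAC samples stood apart, below the other 6. The DAC fall was −0.094 (SE 0.026, adjusted p 0.0132), as deep as the median of genes at its level (−0.091), and it was 0.0038 and not called after quantile normalisation. The NTX-301 value was 0.0088 as deposited, −0.021 after centring, and 0.12 and called after quantile normalisation, so its direction depended on the scaling.

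**Figure D3:**
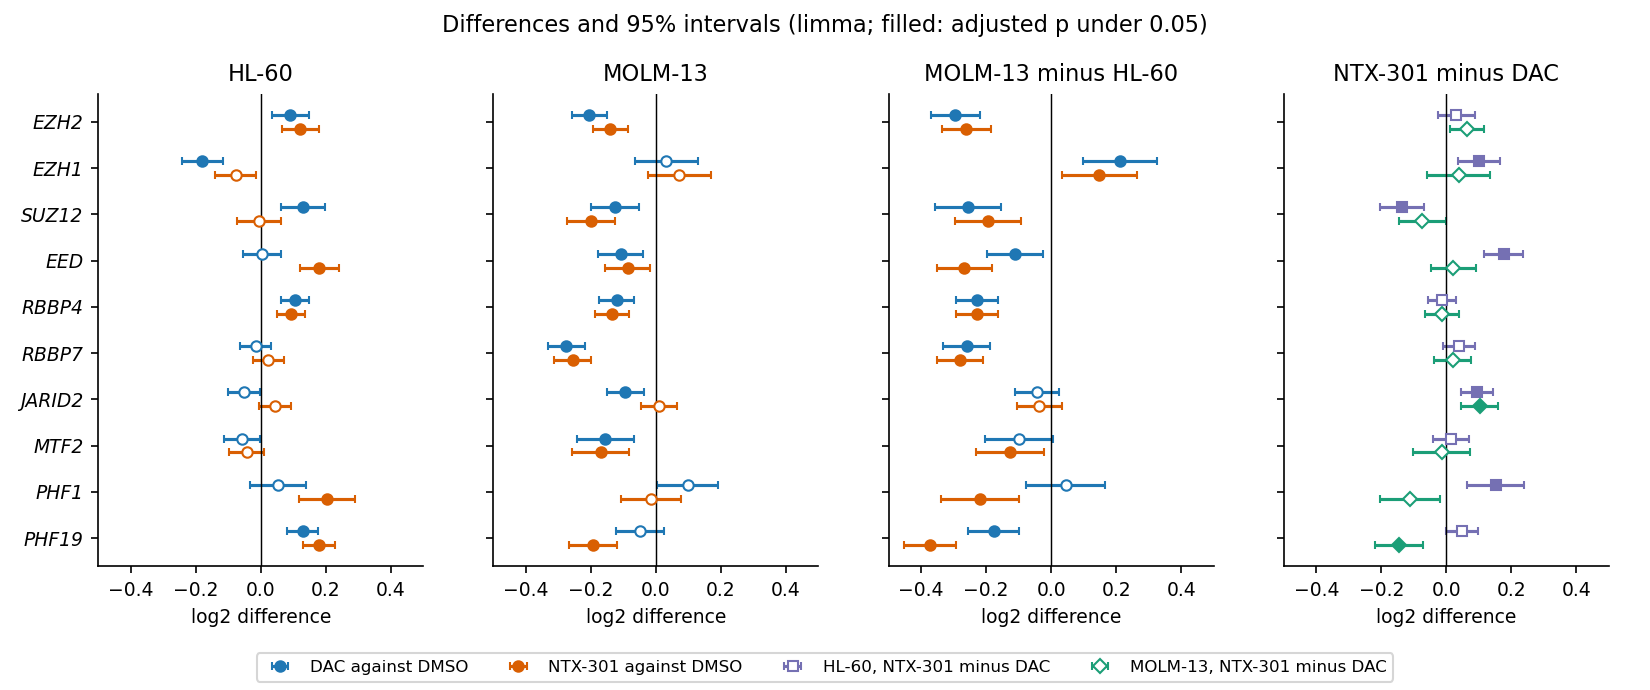
Log2 differences (horizontal axis) of the 10 genes with 95% intervals from limma, for DAC and NTX-301 against DMSO in HL-60 and in MOLM-13, for the difference of these effects between the lines (MOLM-13 less HL-60), and for NTX-301 minus DAC in each line. Filled symbols have an adjusted p under 0.05. EZH2, RBBP4 and PHF19 lie right of 0 in HL-60 with both drugs, and 7 genes per drug are filled left of 0 in MOLM-13.

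The second question was whether the drugs differed within a line. In HL-60, 4 members were higher under NTX-301 than under DAC (EED 0.18, PHF1 0.15, EZH1 0.10, JARID2 0.096) and SUZ12 was lower (−0.14), where 30.4% of all genes were called, 15.4% higher and 15% lower. After centring, all genes were 1746 higher and 5770 lower, against 2622 and 2563 as deposited, and the members 3 higher and 1 lower. The adjusted p-values of EED, SUZ12 and JARID2 were 0.000246, 0.00448 and 0.00560, and JARID2 was 0.062 after centring. The EZH1 call was lost after centring (0.068) and without DAC replicate 1 (0.089), DAC replicate 2 (0.092) or NTX-301 replicate 1 (0.098). EZH2 and RBBP4 did not differ by this test, with 95% intervals of −0.027 to 0.087 and −0.057 to 0.030 for NTX-301 minus DAC. Within the core, then, EED was higher and SUZ12 lower under NTX-301 than under DAC. After quantile normalisation RBBP7 and PHF19 were also called higher (0.072 and 0.073).

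In MOLM-13, 2 members differed between the drugs, where 7.42% of all genes were called, 3.01% higher and 4.41% lower. JARID2 was higher under NTX-301 (0.10, SE 0.026, adjusted p 0.0344) and PHF19 lower (−0.15, SE 0.034, adjusted p 0.0242). The JARID2 call was lost without the trend and without DAC replicate 1 (0.083), DAC replicate 2 (0.11) or any NTX-301 replicate (0.10, 0.11 and 0.095). That of PHF19 was lost without DAC replicate 1 (−0.13), NTX-301 replicate 1 (−0.12) or NTX-301 replicate 2 (−0.14). RBBP4, RBBP7 and EED had 95% intervals of −0.067 to 0.040, −0.037 to 0.077 and −0.048 to 0.090. SUZ12 was −0.074 and not called (adjusted p 0.215), and −0.11 and called without DAC replicate 2. Since the concentration of NTX-301 is not settled by the labels, these are differences between the treatments as given.

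The third question was whether the lines differed in their response. The DAC effect was lower in MOLM-13 than in HL-60 for 6 members and higher for 1, where 30% of 15474 genes were called, 12.1% higher and 17.9% lower (1871 and 2767, or 1346 and 4548 after centring). The NTX-301 effect was lower for 8 and higher for 1, where 40% of genes were called, 17.6% higher and 22.4% lower. PHF19 had the widest gap under NTX-301 (−0.37, SE 0.038, adjusted p 3.26e-07) and EZH2 under DAC (−0.30, SE 0.036, adjusted p 5.59e-06). EZH1 was the member whose effects were higher in MOLM-13 (0.21, adjusted p 0.00618, and 0.15, adjusted p 0.0360). The NTX-301 call of EZH1 was lost in 9 of the 18 fits without 1 sample (value 0.11 to 0.20 over all 18): without HL-60 DMSO 1 or 3, any HL-60 NTX-301 sample, MOLM-13 DMSO 2 or 3, or MOLM-13 NTX-301 2 or 3.

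For EZH2, RBBP4, RBBP7 and PHF19 the difference between the lines kept its call for both drugs in all 18 fits without 1 sample and under the 6 other settings run. Their size did not always hold: after quantile normalisation RBBP4 was −0.12 under DAC and −0.11 under NTX-301, from −0.23 for each, and RBBP7 under DAC was −0.17, from −0.26. JARID2 was not called for either drug (−0.043 and −0.036, and 0.038 and 0.048 after quantile normalisation). MTF2 under NTX-301 (−0.13, adjusted p 0.0491) was lost in 12 of those 18 fits (−0.15 to −0.11 over all 18), the exceptions being HL-60 DMSO 2, MOLM-13 DMSO 1, any MOLM-13 DAC sample and MOLM-13 NTX-301 2. It was also lost under 5 of the 6 other settings. With DAC, MTF2 was −0.099 and not called, and −0.15 and called without MOLM-13 DAC replicate 1. EED under DAC (−0.11, adjusted p 0.0454) was lost in 11 of the 18 fits (−0.13 to −0.085 over all 18): without HL-60 DMSO 3, any HL-60 DAC or NTX-301 sample, MOLM-13 DMSO 2 or 3, MOLM-13 DAC 2 or MOLM-13 NTX-301 1. It was also lost after quantile normalisation (−0.073), and so was SUZ12 under NTX-301 (−0.11).

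**Figure D4:**
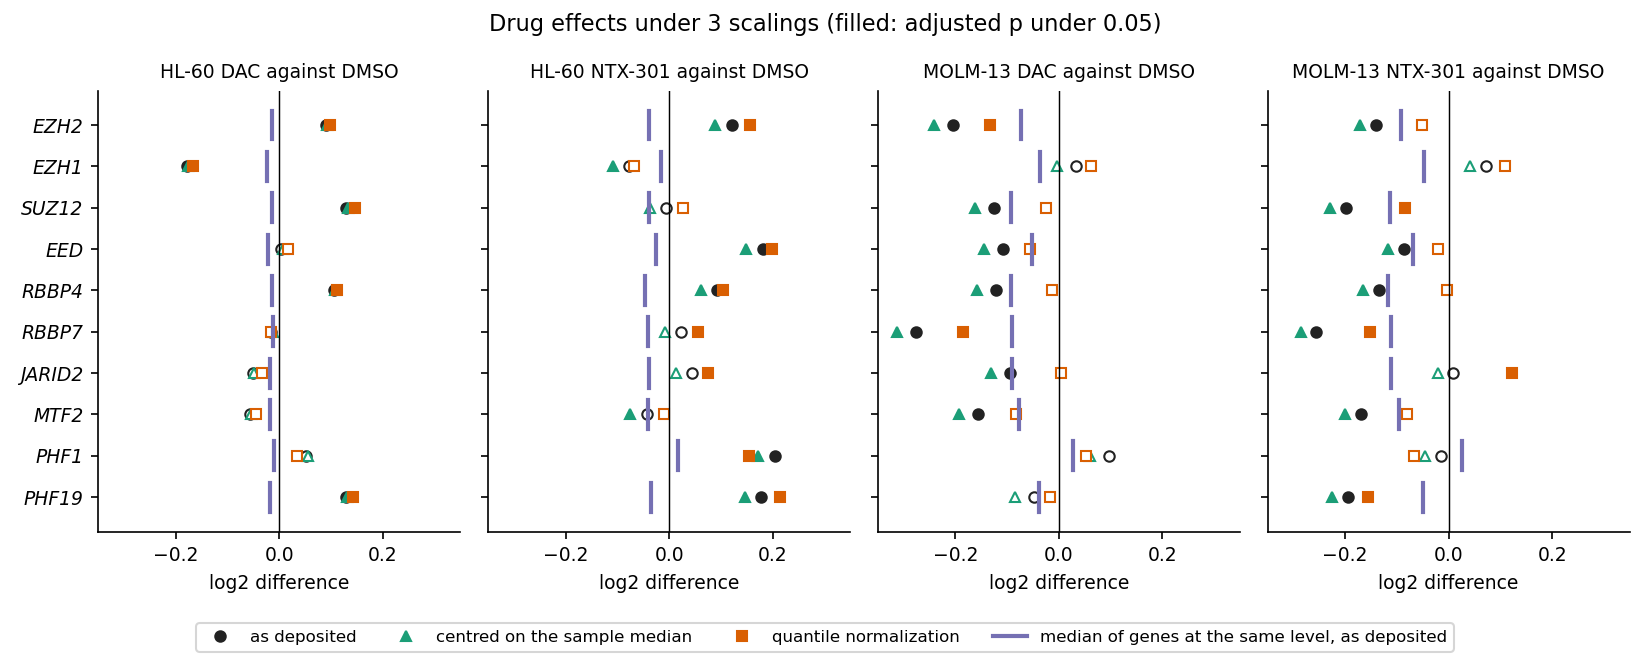
Drug-against-DMSO log2 differences (horizontal axis) of the 10 genes as deposited, after centring each sample on its median, and after quantile normalisation within the line (filled: adjusted p under 0.05), beside the median difference of other genes within 0.5 of the same level (vertical bars, as deposited). In MOLM-13 quantile normalisation moves most members towards 0 and leaves 2 lower under DAC and 3 under NTX-301, while in HL-60 EZH2, RBBP4 and PHF19 stay filled right of 0 under all 3 scalings.

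The genes whose pattern was most like that of EZH2 were sought among 9701 genes that reached a mean log2 value of 8 in HL-60 and in MOLM-13, by the mean over the lines of Pearson's r across the 9 samples. These were ERVK3-1 (0.94), CENPE (0.92), SLC27A2 (0.92), LPCAT1 (0.92) and RRM2 (0.91). CENPE encodes a mitotic kinesin and RRM2 a subunit of ribonucleotide reductase. Of the other members, RBBP4 came highest (0.79, position 185), followed by EED (0.71, position 446) and PHF19 (0.64, position 659). RBBP7 followed EZH2 in MOLM-13 (r = 0.91) and less in HL-60 (r = 0.30). EZH1 came last of the members (−0.31, position 8153). The 9 samples of a line share its 3 treatments, so these values describe how the groups are ordered.

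Proliferation genes went with EZH2 in direction. Of 20 (E2F targets and mitotic genes), 7 rose and 1 fell under DAC in HL-60, 16 rose and none fell under NTX-301 there, and 18 fell and none rose with either drug in MOLM-13. Their medians were 0.043, 0.14, −0.29 and −0.38, against 0.00064, 0.00082, 0.0013 and 0.0034 over all genes tested. Of all genes tested, 11.6% and 18.3% rose in HL-60, and 21.2% and 24.8% fell in MOLM-13. Among MOLM-13 genes with a mean log2 value of 11 to 15, 44.6% and 50.8% fell, with medians of −0.068 and −0.089. The proliferation genes were not matched to other genes by level. After quantile normalisation their counts were 8 higher and 1 lower, 19 higher, 17 lower and 16 lower. In HL-60, RRM2 rose by 0.23 under DAC, and E2F2, an E2F factor, rose by 0.76 and the cyclin CCNE2 by 0.43 under NTX-301. In MOLM-13, the replication helicase genes MCM2 and MCM6 fell under DAC (−0.37 and −0.36), and MCM6 and the cyclin CCNB1 fell under NTX-301 (−0.49 and −0.50). The part of the proliferation genes' shift in the PRC2 values was not tested.

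RBBP4 and RBBP7 also serve chromatin assembly (CAF-1) and the NuRD and SIN3 deacetylase complexes, and 18 genes of those were examined. In HL-60, 4 rose and 3 fell under DAC and 7 rose and 2 fell under NTX-301. In MOLM-13, 4 rose and 10 fell with either drug, a count of falls that was 6 and 7 after quantile normalisation. Of all genes tested, 11.6% rose and 12.6% fell under DAC in HL-60, and 18.3% and 19.2% under NTX-301. In MOLM-13 the shares were 15.4% and 21.2% under DAC, and 20.3% and 24.8% under NTX-301. The same shares apply to the lists that follow. MTA3, a NuRD subunit, rose in all 4 comparisons (0.28, 0.48, 0.35 and 0.43). The NuRD helicase gene CHD3 rose in HL-60 (0.14 and 0.26). The CAF-1 genes CHAF1A and CHAF1B, which work with RBBP4 behind the replication fork, fell in MOLM-13 by −0.22 and −0.33 under DAC and by −0.23 and −0.22 under NTX-301.

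PRC1 is the partner complex that binds the PRC2 mark and ubiquitinates histone H2A, and 23 of the 24 genes listed for it were measured. In HL-60, 6 rose and 7 fell under DAC, and 6 rose and 4 fell under NTX-301 (5 and 8 after centring). In MOLM-13, 1 rose and 7 fell under DAC (3 and 6 after quantile normalisation), and 4 rose and 10 fell under NTX-301 (2 and 14 after centring). Of all genes tested there, 21.2% fell under DAC and 24.8% under NTX-301. Among genes with a mean log2 value of 11 to 15 these shares were 44.6% and 50.8%. CBX2, a reader of the mark, rose in HL-60 by 0.17 and 0.43, and PHC1 rose there under NTX-301 (0.48). L3MBTL2 fell under NTX-301 in both lines (−0.25 and −0.30). BMI1 fell under DAC in MOLM-13 (−0.27) and PCGF6 with both drugs (−0.22 and −0.36), whereas BCORL1 rose (0.29 and 0.26).

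Of the 2 H3K27 demethylase genes, which encode enzymes that remove the mark, 1 rose under DAC and 2 under NTX-301 in MOLM-13. KDM6B rose there by 0.40 under DAC (SE 0.063, adjusted p 0.000506) and 0.36 under NTX-301 (adjusted p 0.000662), and KDM6A rose under NTX-301 (0.15). Neither was called in HL-60 as deposited, and 1 of the 2 was called higher there under NTX-301 after quantile normalisation. Of 9 measured genes of the PR-DUB deubiquitinase, 0 rose and 1 fell under DAC in HL-60, 3 rose and 4 fell under NTX-301, and 3 rose and 2 fell with either drug in MOLM-13. After quantile normalisation these were 0 and 0, 3 and 3, 5 and 0, and 4 and 1. MBD6 rose in MOLM-13 (0.36 and 0.38), and BAP1, the catalytic subunit, fell under NTX-301 in both lines (−0.19 in HL-60 and −0.17 in MOLM-13).

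Of 13 Trithorax and SWI/SNF genes, which counteract Polycomb silencing, 1 rose and 2 fell under DAC and 4 rose and 4 fell under NTX-301 in HL-60, and 4 rose and 5 fell with either drug in MOLM-13. After quantile normalisation these were 2 and 1, 5 and 1, 5 and 3, and 6 and 2. SMARCA4 fell in HL-60 (−0.11 and −0.18). In MOLM-13, WDR5 fell (−0.22 and −0.30) and the methyltransferase gene KMT2B rose (0.29 and 0.25). Of 6 measured other PRC2 cofactors, 0 rose and 1 fell under DAC and 2 rose and 1 fell under NTX-301 in HL-60, and 0 rose and 1 and 3 fell in MOLM-13 (1 and 2, and 3 and 3, after quantile normalisation). LCORL fell under NTX-301 in HL-60 (−0.22), and ELOC fell in MOLM-13 (−0.25 and −0.36).

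Genes described elsewhere as repressed by PRC2 were mostly not listed: 6 of 16 were tested in HL-60 and 5 in MOLM-13. In HL-60, 2 rose and 1 fell under DAC and 2 rose and 2 fell under NTX-301 (1 and 2 after quantile normalisation). In MOLM-13, 2 rose and none fell with either drug (1 under DAC after centring). RUNX3 fell in HL-60 (−0.11 and −0.23). The mark itself was not measured.

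**Figure D5:**
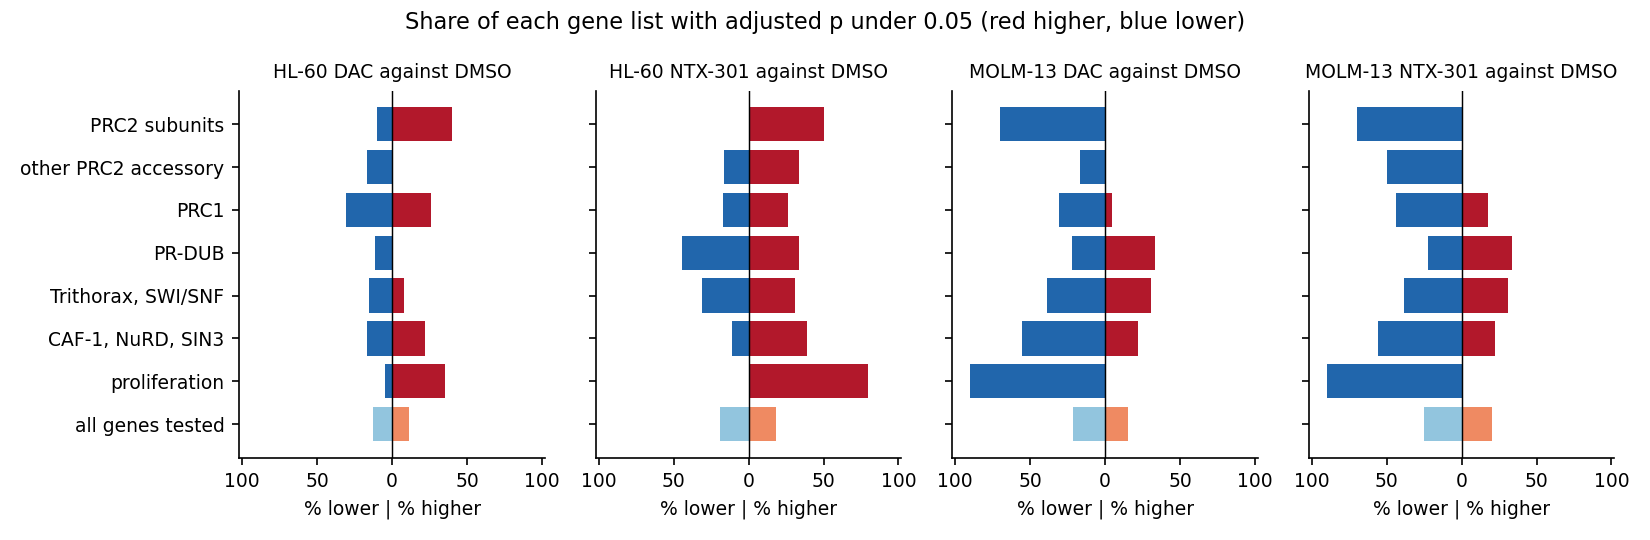
Share of each gene list with an adjusted p under 0.05 for each drug against DMSO in each line, higher to the right and lower to the left (horizontal axis, percent of the genes tested), beside all genes tested in paler colours. Proliferation genes reach 16 of 20 higher under NTX-301 in HL-60 and 18 of 20 lower with either drug in MOLM-13, and PRC2 subunits lie on the same side in each.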

How the data were processed

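RNA of 18 samples was sequenced from a stranded total RNA library, per the labels' protocols. The submitters' processing notes name FastQC, Trimmomatic 0.38, HISAT2, StringTie and hg19, without roles. The authors deposited normalised log2 values per gene. The method is not given in the sources used here, low genes are drawn towards their mean, and depth is unknown, so precision rests on the 3 replicates. Nothing says these are separate cultures, so p-values measure only the spread between these samples, which may be technical.

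Each line was fitted with limma 3.58.1 (R 4.3.3; eBayes with trend; 6 residual degrees of freedom; two-sided) on genes whose linear value reached 1 in 3 or more samples, 17046 in HL-60 and 17475 in MOLM-13. Benjamini-Hochberg adjustment ran over every gene tested. The difference between lines used 1 fit of 18 samples over 15474 genes (12 residual degrees of freedom). Lengths came from GENCODE and promoter windows from RefSeq (GRCh38.p14). All members are named. Other named genes are a selection from the 2 highest and 2 lowest called per list, line and drug, and the 5 most like EZH2. In simulated data 200 genes were changed in each line, far fewer than were called in the data. A change of 0.25 was recovered in 93.2% of 73 genes among 17046 for DAC in HL-60. For DAC in MOLM-13 it was recovered in 74.5% of 55 genes among 17475. A change of 0.1 was recovered in 25.4% and 20.6%. These shares describe that setting and not the recovery in the fits of the data. Members and lists were chosen with earlier results of these data known. Alternatives were other filters, scalings, trend, samples in the fit, threshold, the replicate block and leaving out each sample.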

Additional observations from a re-analysis of the deposited data

Results flagged for a closer look

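The response of these PRC2 genes to a drug was not the same in the lines when the difference was tested directly, as the MOLM-13 effect less the HL-60 effect (limma, adjusted over 15474 genes). For DAC this difference was −0.30 for EZH2, −0.26 for RBBP7, −0.26 for SUZ12, −0.23 for RBBP4, −0.18 for PHF19, −0.11 for EED and 0.21 for EZH1. For NTX-301 it was −0.37 for PHF19, −0.28 for RBBP7, −0.27 for EED, −0.26 for EZH2, −0.23 for RBBP4, −0.22 for PHF1, −0.19 for SUZ12, −0.13 for MTF2 and 0.15 for EZH1. Under NTX-301 the call was lost for MTF2 in 12 of 18 fits without 1 sample and under 5 of 6 other settings, for EZH1 in 9 of 18 such fits, and for SUZ12 after quantile normalisation (−0.11). Under DAC it was lost for EED in 11 of 18 such fits and after quantile normalisation (−0.073). After quantile normalisation RBBP4 was −0.12 (DAC) and −0.11 (NTX-301), and RBBP7 was −0.17 (DAC). The share of all genes called in these comparisons was 30% and 40%. The line and its stated concentration cannot be told apart.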

How the results depend on the processing

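The count of members called moved by over 1.5 times in these cases. With an adjusted p under 0.01 it was 3 for NTX-301 against DAC in HL-60. In MOLM-13 it was then 4 for DAC against DMSO and 0 for NTX-301 against DAC. All genes called at that threshold were 1608 higher and 1709 lower of 17046, 1557 and 2599 of 17475, and 131 and 226 of 17475. After quantile normalisation the count of members was 2 for DAC and 4 for NTX-301 against DMSO in MOLM-13. All genes were then 2599 higher and 2979 lower, and 3273 and 3687. For NTX-301 against DAC in MOLM-13 the count of members was 1 without the trend and 1 with the replicate block. It was 0 to 2 with 1 sample left out. All genes were 449 higher and 645 lower, 330 and 487, and from 179 and 283 to 515 and 807. The other counts with 1 sample left out were 4 to 5 (DAC against DMSO, HL-60), 5 to 6 (NTX-301) and 4 to 5 (NTX-301 against DAC). All genes called, of 17046, ran from 1582 higher and 1561 lower in the fit with fewest to 1961 and 2115 with most. For the others they ran from 2649 and 2774 to 3132 and 3265, and from 2037 and 2168 to 2673 and 2631. In MOLM-13 the counts were 5 to 8 (DAC against DMSO) and 6 to 7 (NTX-301). All genes there, of 17475, ran from 2097 and 3004 to 2640 and 3728, and from 2864 and 3773 to 3614 and 4415. Between lines the counts were 6 to 8 (DAC) and 7 to 9 (NTX-301). All genes, of 15474, ran from 1562 and 2354 to 2111 and 3017, and from 2419 and 3137 to 2813 and 3559. Deviations of same-numbered samples from their group means had r of −0.095 to 0.14 in HL-60 and −0.21 to 0.077 in MOLM-13. Samples with different numbers had −0.16 to 0.14 and −0.12 to 0.21. With 3 replicates per group these values cannot settle whether the numbers pair the samples, and the labels give the numbers alone. The replicate block ended the calls of EED with NTX-301 in MOLM-13, EED with DAC between lines, MTF2 with NTX-301 between lines and JARID2 between the drugs in MOLM-13, and no other call of a member.

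Of the member values with 1 sample left out, 843 kept their direction and side of the threshold, 55 lost the call, 8 gained one and 12 turned in sign. Under the other settings 513 kept both, 20 lost the call, 10 gained one and 11 turned in sign. The DAC fall of JARID2 in MOLM-13, called as deposited (−0.094), turned after quantile normalisation, and the other values that turned had not been called. With centring the turned values were EZH1 (DAC, MOLM-13, −0.0044), EZH2 and MTF2 (NTX-301 against DAC, HL-60, −0.0036 and −0.020), JARID2 (NTX-301, MOLM-13, −0.021) and RBBP7 (NTX-301, HL-60, −0.0083). With quantile normalisation they were JARID2 (0.0038 with DAC in MOLM-13, and 0.038 and 0.048 between lines), MTF2 and RBBP4 (NTX-301 against DAC, MOLM-13, 0.0018 and 0.0096) and SUZ12 (NTX-301, HL-60, 0.026). With 1 sample left out the values that crossed 0 ranged as follows: EED (DAC, HL-60) −0.023 to 0.020, RBBP7 (DAC, HL-60) −0.033 to 0.00073, SUZ12 (NTX-301, HL-60) −0.024 to 0.026, RBBP4 (NTX-301 against DAC, HL-60) −0.027 to 0.0012, JARID2 and PHF1 (NTX-301, MOLM-13) −0.0049 to 0.027 and −0.048 to 0.016, and EED, MTF2 and RBBP4 (NTX-301 against DAC, MOLM-13) −0.0034 to 0.036, −0.045 to 0.038 and −0.028 to 0.0092. The causes were not tested. The compressed scale and unknown depth limit what small differences can show.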
